A study of Rattus norvegicus with 36 samples.

Results

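The constitutive proteasome subunits are the genes whose products build the standard protein-degrading complex of the cell. Members were chosen by symbol from a list of 31 genes, and 30 of them had a row among the 20603 genes of the deposited table. The row named Psma3l was read as Psma3, because the RefSeq gene table for GRCr8 gives Psma3l as a former name of that gene. No row matched Psmb6, the caspase-like catalytic subunit, which was not analysed here. The 30 genes comprised 13 subunits of the core particle and 17 of the regulatory particle. All 30 had a median value of at least 10, the minimum used for the 15837 genes tested.

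The values come from RNA of frozen hippocampus of female rats, sequenced in 36 libraries. The labels divide the animals into 6 groups of 6 by age and by the state of the oestrous cycle. Reg6m and Reg9m were regularly cycling rats of 6 and 9 months, and Irreg9m and Acyc9m were 9-month rats with irregular cycles or none. RegOVX10m rats lost their ovaries at 9 months and were taken at 10 months, and Acyc16m rats were acyclic at 16 months. The labels name no strain, transgene or drug for any of these animals, and they do not say whether a library pools animals. The columns of the table carry only a running number, hippo1 to hippo36, which no label ties to an animal or to one of the 6 groups. The 36 libraries were therefore described as 1 ungrouped set, so that differences between cycle states or ages are part of the spread given here and were not separated. No group was compared with another, and no p-value was computed.

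The proteasome is a barrel with a cap. The barrel, the 20S core particle, has outer rings of alpha subunits that gate the entrance and inner rings of beta subunits, some of which cut proteins. The cap, the 19S regulatory particle, has a base with a ring of ATPases that unfold the substrate and push it into the barrel. Receptors in the base recognise ubiquitin-tagged proteins, and the lid holds the enzyme that removes the tag. Every subunit is needed in a fixed proportion in the finished complex, and neurons use the proteasome to renew synaptic proteins. In human cells, the transcription factor NRF1, made by Nfe2l1, is known to raise subunit genes together when the proteasome is blocked.

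The libraries were alike in scale. Column totals of normalised counts, rounded, ran from 34500000 to 36000000, with a median of 35300000. The low values clustered at multiples of the worth of 1 read, and in each library between 85.9% and 94.2% of values under 5 reads lay within 0.05 read of a whole number. That worth gave an approximate depth of 17900000 reads in hippo30 and 40200000 in hippo13, with a median of 35500000. The step differed between genes at higher values, so whole reads were not recovered, and these depths are estimates. The shallowest library, hippo30, listed 2621 genes at 0, against at most 2120 in any other library. Over tested genes, the median correlation of a library with the rest ran from 0.989 in hippo17 to 0.993, and the closest pair of libraries had 0.995. The labels name no batch. Neuronal and astrocytic markers were present in every library, with summed values of 219998 to 288216 over 8 neuronal genes and of 85133 to 117229 over 6 astrocytic genes. Markers of the choroid plexus, a neighbouring tissue, had a summed value between 39.0 and 1842 (median 87.8).

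Promoter sequences are shown for 4 subunits, those of the pair of genes whose mRNAs rose and fell together most closely and of the pair that was most opposed. Psmb5 makes the chymotrypsin-like catalytic subunit of the core, and Psmd8 makes a lid subunit. Psma2 makes an alpha ring subunit, and Psmd2 makes the large base subunit that docks ubiquitin-carrying shuttle proteins. Each sequence is the 250 bases before the annotated start in RefSeq GRCr8, 5′ to 3′ on the strand of the gene, which is the minus strand for all 4. The positions are chr15:32047380-32047629 for Psmb5, chr1:93608690-93608939 for Psmd8, chr17:55260442-55260691 for Psma2 and chr11:93763389-93763638 for Psmd2. Capitals mark CCAAT (the NF-Y box), TGACNNNGC (the core of the antioxidant response element, to which NRF1 and its relatives bind) and CGGAAG (the ETS core), read on either strand.
Psmb5: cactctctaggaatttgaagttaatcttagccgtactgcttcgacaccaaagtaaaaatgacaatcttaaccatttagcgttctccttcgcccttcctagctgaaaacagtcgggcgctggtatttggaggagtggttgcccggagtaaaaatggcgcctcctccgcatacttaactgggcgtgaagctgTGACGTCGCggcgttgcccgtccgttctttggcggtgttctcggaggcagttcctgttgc
Psmd8: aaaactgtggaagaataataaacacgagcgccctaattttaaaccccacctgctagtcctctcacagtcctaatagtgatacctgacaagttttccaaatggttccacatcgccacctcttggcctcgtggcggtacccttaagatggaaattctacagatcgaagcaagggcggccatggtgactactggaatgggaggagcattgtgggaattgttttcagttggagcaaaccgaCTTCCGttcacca
Psma2: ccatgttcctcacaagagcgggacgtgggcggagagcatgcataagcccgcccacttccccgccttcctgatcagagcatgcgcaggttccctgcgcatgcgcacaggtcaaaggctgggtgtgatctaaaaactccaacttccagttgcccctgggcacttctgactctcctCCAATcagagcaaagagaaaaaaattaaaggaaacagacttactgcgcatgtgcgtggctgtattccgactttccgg
Psmd2: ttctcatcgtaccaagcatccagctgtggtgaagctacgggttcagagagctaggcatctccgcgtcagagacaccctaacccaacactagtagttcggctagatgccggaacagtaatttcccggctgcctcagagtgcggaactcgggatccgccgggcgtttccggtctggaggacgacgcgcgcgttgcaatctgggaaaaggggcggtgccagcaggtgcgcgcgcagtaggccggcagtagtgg
The Psmb5 window held TGACNNNGC, with its nearest end 52 bases before the start. The Psmd8 window held CGGAAG 8 bases before the start, on the opposite strand. The Psma2 window held CCAAT 73 bases before the start, and no capital stands in the Psmd2 window. The closest pair thus had no marked motif in common in these windows.

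Promoter windows were at hand for 27 of the 31 listed genes, with no entry matched for Psma7, Psmd6, Psmd12 and Psmd14. CGGAAG stood in 15 of the 27 (55.6%), against 23.2% of 12447 promoters of tested genes. CCAAT stood in 14 (51.9%), against 34.1%, and GGGCGG, the GC box, in 19 (70.4%), against 54.6%. TGACNNNGC stood in 5, namely Psma3, Psmb2, Psmb5, Psmb6 and Psmd1 (18.5%), against 12.1%. TATAAA stood in 4 (14.8%), against 7.05%. These motifs were searched on both strands, each on its own, so that matches of different motifs may overlap. In 3 further searches, for longer motifs, the ZNF143 site was in 2 member windows (7.41%, against 3.37%), the BANP site in 1 (3.70%, against 0.747%) and the nuclear respiratory factor site in 4 (14.8%, against 7.53%). The windows of the members had a median GC content of 55.6%, between 45.2% and 63.6%, against 59.6% for tested genes. A match describes the letters and is not a measured binding site.

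Subunit mRNA varied little between libraries. The interquartile range, the width that holds the middle of the 36 values, had a median of 0.08 on the log2 scale over the 30 genes, which is 5.79% of the level. The same median was 0.15 on the log2 scale (10.7%) over all 15837 tested genes, and all 30 subunits lay below it. Well-expressed genes vary less in general, so the subunits were also set beside the 3471 tested genes whose medians fell between those of the lowest and highest subunit, 1725 and 6737 normalised counts. Those genes had a median interquartile range of 0.10 on the log2 scale (7.004%), and 25 of the 30 subunits lay below it. Relative to the counting noise expected at their depth, the subunits had a median width of 2.24 times that noise and the genes of like level 2.75 times. Between the highest and the lowest library, the fold for a single subunit ran from 1.07 for Psmd13 to 1.29 for Psma1.

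**Figure D1:**
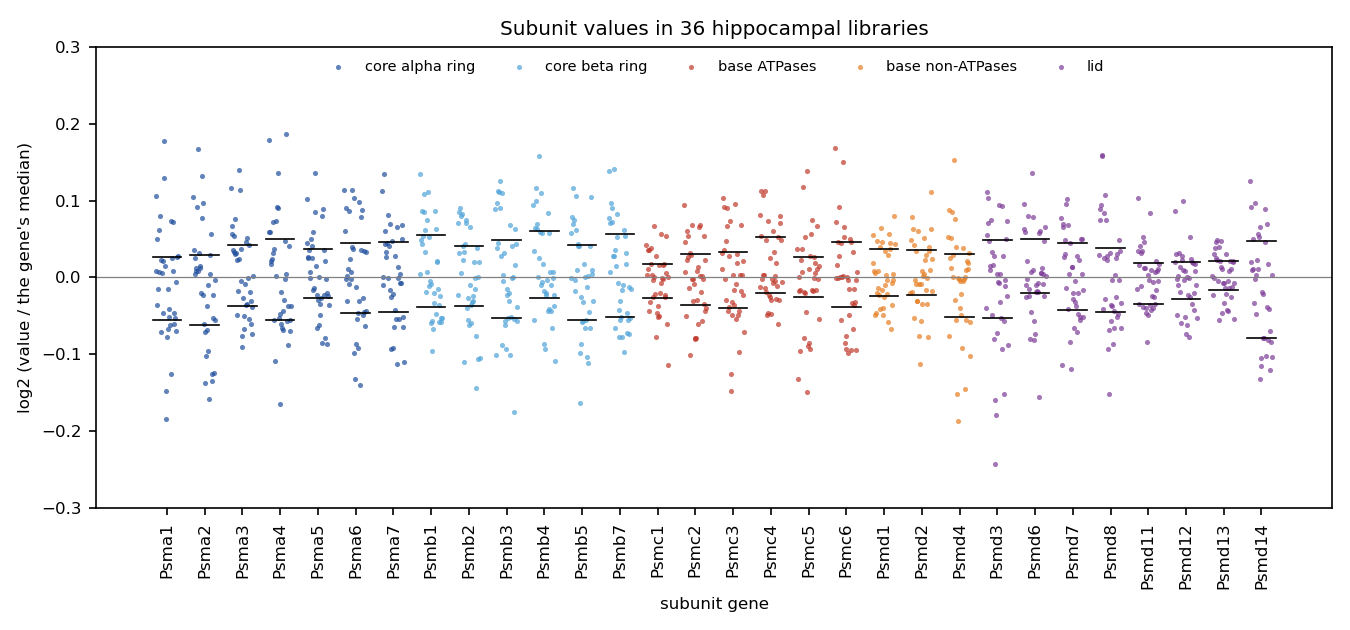
Each point is 1 of 36 libraries, and the vertical axis gives log2 of a subunit's value over its own median, with black bars at the quartiles and colours for the ring, base and lid. Nearly all points lie within 0.2 log2 units of the median, and Psmd13 has the narrowest cloud, from 3075 to 3306 normalised counts.

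In the core, the 7 alpha subunits had a median interquartile range of 0.09 and the 6 beta subunits of 0.10 on the log2 scale. Psma4, an alpha ring subunit, was among the 3 widest members, with values from 2634 in hippo19 through a median of 2954 to 3362 in hippo29. Psma1 had the largest fold between extreme libraries, from 1943 in hippo18 to 2497 in hippo14 around a median of 2207. Psma5 was the narrowest core subunit, with values from 1959 to 2286 and a median of 2080. The remaining alpha genes Psma2, Psma3, Psma6 and Psma7 had folds between extremes of 1.25, 1.17, 1.19 and 1.19.

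Among the beta genes, the trypsin-like catalytic subunit Psmb7 was the widest, with an interquartile range of 0.11 on the log2 scale. Its values ran from 4156 in hippo26 through a median of 4446 to 4901 in hippo10. The chymotrypsin-like subunit Psmb5 ran from 2589 in hippo16 through 2901 to 3145 in hippo5. These catalytic genes were thus highest and lowest in different libraries, and across the 36 libraries their correlation was 0.390 (rho 0.382). The structural beta subunits Psmb1, Psmb2, Psmb3 and Psmb4 had folds between extremes of 1.17, 1.18, 1.23 and 1.20. Both Psmb2 and Psmb3 were lowest in hippo30, the library of least depth.

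In the base, all 9 genes had narrower interquartile ranges than the median gene of like level. The ATPase gene Psmc1 was among the 3 narrowest members, at 0.04 on the log2 scale, with values from 4587 to 5198 and a median of 4962. Psmc5, another ATPase, had a narrow middle of 0.05 but distant extremes, from 5021 in hippo16 through 5569 to 6129 in hippo17. The other ATPases Psmc2, Psmc3, Psmc4 and Psmc6 had interquartile ranges of 0.07, 0.07, 0.07 and 0.08 on the log2 scale. The scaffold genes Psmd1 and Psmd2 were likewise narrow at 0.06 each, while Psmd4, the ubiquitin receptor of the base, had 0.08 and a fold of 1.27 between extremes.

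The lid held both the narrowest and the widest member. Psmd13, a structural lid subunit, ran from 3075 in hippo11 through 3196 to 3306 in hippo8, and its interquartile range of 0.04 on the log2 scale was 1.10 times the counting noise. Psmd12 followed at 0.05, with values from 2910 to 3291 and a median of 3071. Psmd14, the lid metalloprotease that cuts the ubiquitin chain from the substrate, was the widest at 0.13, with values from 1752 in hippo17 through 1920 to 2095 in hippo1. Of the other lid genes, Psmd3 had 0.10, against a median of 0.10 for the beta genes, Psmd7, Psmd8 and Psmd6 had 0.09, 0.08 and 0.07, and Psmd11 had 0.05. Psmd3 also had a long lower tail, from 3146 in hippo16 through a median of 3724 to 4021 in hippo3.

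**Figure D2:**
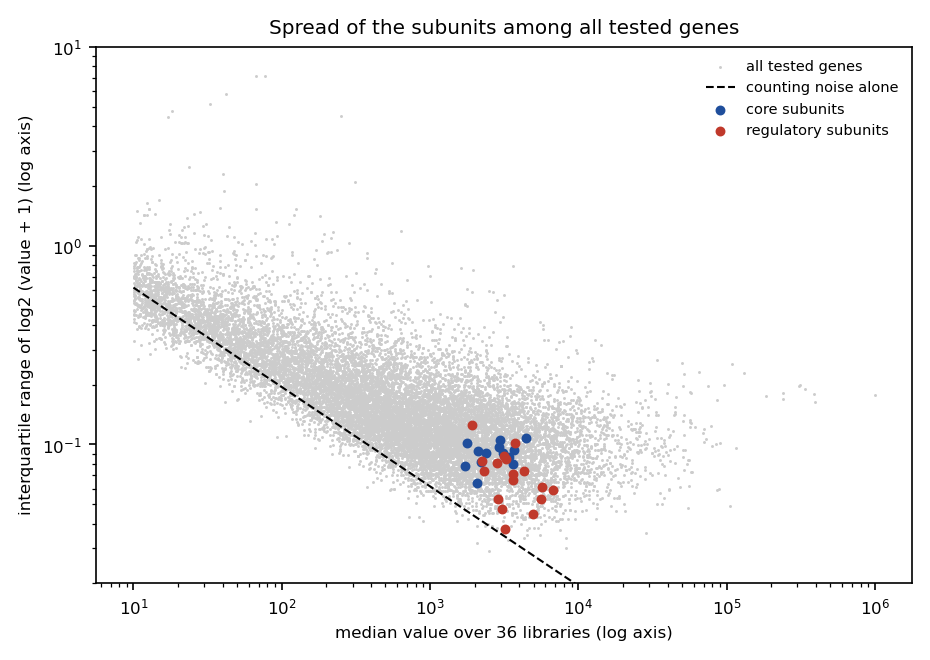
Each grey point is a tested gene, placed by its median value and by the interquartile range of its log2 values, both on log axes, with core subunits in blue, regulatory subunits in red and a dashed line for counting noise alone. The subunits sit in the lower part of the cloud, 25 of 30 below the median of 0.10 for genes of like level.

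Taken as classes, core subunits had a median interquartile range of 0.09 and regulatory subunits of 0.07 on the log2 scale, a ratio of 1.28. The jackknife standard error of that ratio over libraries was 0.317. A jackknife error is not reliable for quantiles, so it does not decide whether the particles differ in spread. With the median absolute deviation or the full range in place of the interquartile range, the ratio was 1.51 or 1.14. The count below the median of like-level genes was 10 of 13 in the core and 15 of 17 in the regulatory particle.

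The subunits rose and fell together across libraries, the core more tightly than the cap. Over the 435 pairs of members, the median Pearson correlation was 0.383, and 388 pairs had a positive value. Over all pairs of tested genes the median was -0.0035, and over pairs of genes of like level it was 0.0059. Positive values made up 89.2% of member pairs, 49.4% of all pairs and 50.7% of pairs of like level. Correlations above 0.5 made up 34.3% of member pairs, 2.52% of all pairs and 7.69% of pairs of like level. Within the core the median was 0.584, with a jackknife standard error of 0.0697, and all 78 pairs were positive. Within the regulatory particle it was 0.305, with a standard error of 0.0765, and 117 of 136 pairs were positive. Between core and regulatory subunits it was 0.356 with a standard error of 0.071, which is within its error of the value inside the regulatory particle. The core median exceeded the regulatory median by 0.280 with a jackknife standard error of 0.0912, and it did so with each library left out in turn, by 0.248 to 0.325. The median spread was 2.47 times counting noise in the core and 2.18 times in the regulatory particle. Such noise lowers correlations, and its part in the difference was not tested. Paired with nuclear respiratory chain genes, core subunits had a median of 0.488 and regulatory subunits of 0.331. The latter is no lower than the median inside the regulatory particle. Paired with cytosolic ribosomal protein genes, the medians were 0.337 and 0.164. Correlations across libraries share the libraries and their scaling, and any difference between the 6 groups enters them.

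Inside the core, the alpha ring was the tightest block, with a median of 0.695 over 21 pairs. The beta ring had 0.593 over 15 pairs, and alpha with beta 0.535 over 42 pairs. The closest pair of the rings was Psma1 with Psma6, at 0.834 (rho 0.827), followed by the beta genes Psmb1 and Psmb7 at 0.828 (rho 0.803). Without the 2 libraries farthest from the median of the first gene, these values were 0.799 and 0.792. Psma7 was the alpha gene that followed the core least, with a median correlation of 0.459 to the core.

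Inside the regulatory particle, the 6 ATPases had a median of 0.337, the 9 base genes of 0.275, the 8 lid genes of 0.303, and base with lid 0.311. The ATPases assemble in pairs before the ring closes. The partners Psmc1 and Psmc2 had a correlation of 0.620, the partners Psmc4 and Psmc5 of 0.275, and the partners Psmc3 and Psmc6 of 0.0626. The lid metalloprotease Psmd14 and its dimer partner Psmd7 had 0.0588. The large base scaffolds Psmd1 and Psmd2 had -0.0744. Without hippo16, Psmc3 with Psmc6 had 0.149, Psmd7 with Psmd14 had 0.137 and Psmd1 with Psmd2 had 0.0067. Without the 2 libraries farthest on the first gene, these pairs had 0.229, 0.183 and -0.0752. Of these 5 pairs of partners or scaffolds, chosen after the values were seen, 1 exceeded 0.5. Among all 136 regulatory pairs, 33 did (24.3%), so the count says nothing particular about partners.

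**Figure D3:**
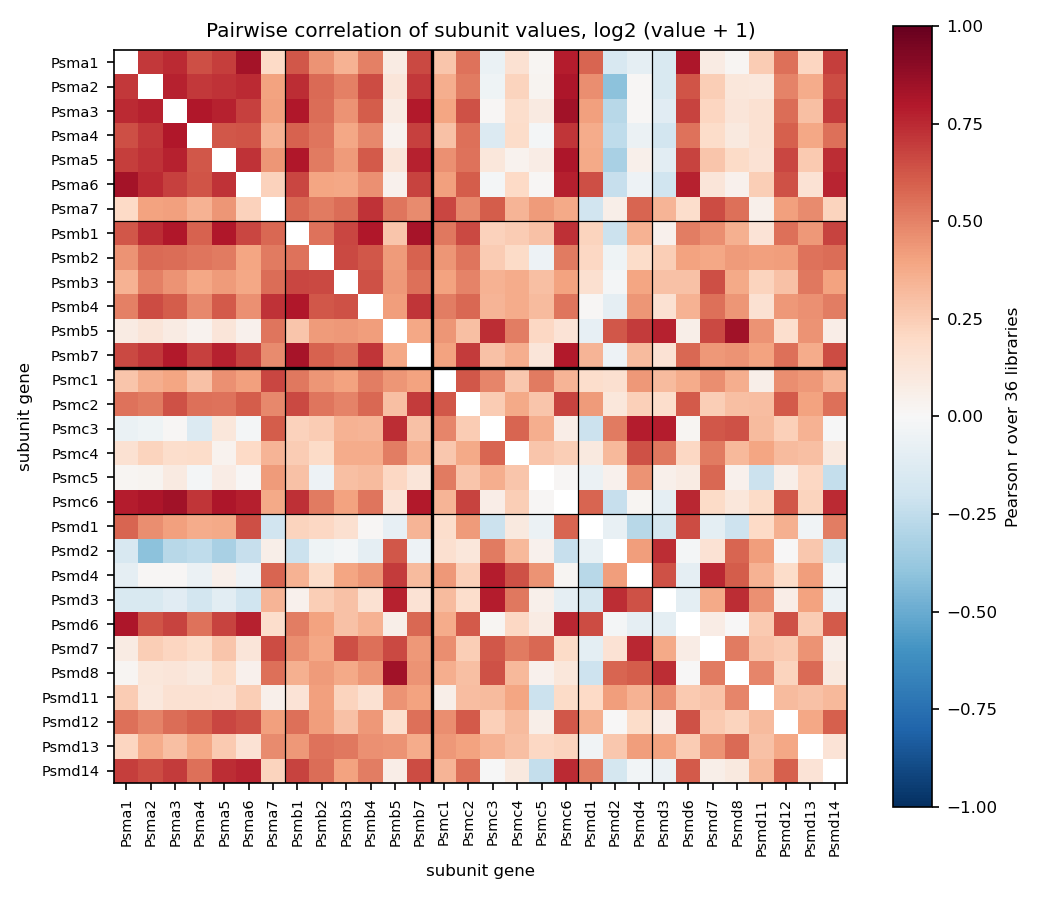
The colour of each square is the Pearson correlation of a pair of subunits over 36 libraries, red for positive and blue for negative, with thick lines between core and regulatory particle and thin lines between ring, ATPases, other base subunits and lid. The block of Psma1 to Psma6 is deep red, and the row of Psmd2 holds the most negative squares, down to -0.414.

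Of the 3 highest correlations among all pairs, 2 crossed from barrel to cap. Psmb5 and Psmd8 had 0.840 (rho 0.813). Psmd8 ran from 2024 in hippo16 through 2249 to 2513 in hippo5, and Psmb5 was likewise lowest in hippo16 and highest in hippo5. Without those 2 libraries the correlation was 0.785. Psma3 with the ATPase gene Psmc6 had 0.837, and 0.773 without hippo1 and hippo14, where both genes were high. The third pair, Psma1 with Psma6, lies within the alpha ring.

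The 3 lowest correlations all involved Psmd2. Psmd2 with Psma2 had -0.414 (rho -0.368), with Psma5 -0.327 and with Psma3 -0.281. Psmd2 ran from 6233 in hippo16 through 6737 to 7274 in hippo34, while Psma2 ran from 1873 in hippo26 through 2091 to 2348 in hippo8. In hippo16, where Psmd2 was lowest, Psma2 stood at 2235, above its median. Without hippo16 the correlation of Psma2 with Psmd2 was -0.358.

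Members differed in how closely they followed the rest. The highest median correlations to the other members were those of Psmb7 (0.549), Psmb1 (0.544) and Psmc6 (0.519). The lowest were those of Psmd2 (-0.0171), Psmc5 (0.0803) and Psmd3 (0.153). Psmc6 followed the core, with a median of 0.734, more than its own particle, with 0.206. Psmd14 likewise had 0.650 to the core and 0.118 to the regulatory particle. Psmb5 had the reverse pattern, with 0.199 to the core and 0.447 to the regulatory particle. In all, 11 of 17 regulatory genes and 1 of 13 core genes, Psmb5, had a higher median with the particle their products do not belong to.

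The main axis of variation of the 30 genes, from a principal component analysis of standardised values, held 40.9% of their variance, and 29 of 30 loaded on it in 1 direction, Psmd2 being the exception at -0.005. A second axis held 21.02% and split the subunits into 14 and 16. On one side stood 6 of 7 alpha genes with Psmd1, Psmd6, Psmd14 and Psmc6 among the other 8. On the opposite side, led by Psmd3, Psmd4, Psmc3, Psmb5, Psmd8 and Psmd2, stood 4 of 6 beta genes, 6 of 9 base genes and 5 of 8 lid genes. The median correlation was 0.659 inside the first set, 0.431 inside the other and 0.203 between them; the sets were made from these same values, so this describes them only. The library hippo16 lay at the far end of this axis. It was the lowest library for 8 members, Psmb5, Psmc3, Psmc5, Psmd2, Psmd3, Psmd4, Psmd7 and Psmd8, while 6 of 7 alpha genes stood above their medians there. Its median correlation to the other libraries was 0.9907, against a median of 0.9927 and a highest value of 0.9933 over libraries. Only hippo17 (0.9887) and hippo30 (0.9906) had lower values. Its approximate depth was 34000000 reads, against a median of 35500000 reads over all libraries. Without hippo16 the correlation of Psmc3 with Psmd3 was 0.734 instead of 0.785, and that of Psmb5 with Psmd8 was 0.810. The profile of 3 ubiquitin pathway genes, Ubb, Rps27a and Uba1, had a correlation of -0.659 with the second axis (rho -0.462), or -0.499 without hippo15 and hippo16, and its part in the split was not tested.

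Averaged over subunits, each particle moved over a narrow range. The mean log2 value of the 13 core genes ran from 11.32 in hippo19 through a median of 11.40 to 11.50 in hippo1, which is a fold of 1.13. That of the 17 regulatory genes ran from 11.71 in hippo16 through 11.77 to 11.83 in hippo14, a fold of 1.09. In hippo1, 27 of 30 subunits stood above their medians and in hippo14 28 of 30, against 2 of 30 in hippo19. Levels of different genes depend on transcript length, which was not taken out here, so the means of the particles say nothing about which is more abundant.

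**Figure D4:**
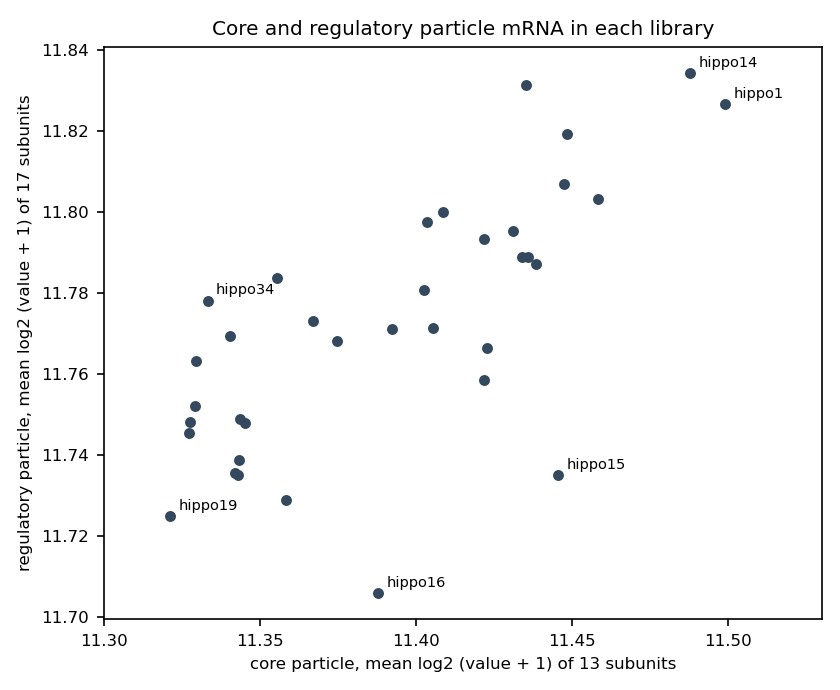
Each point is a library, with the mean log2 value of 13 core subunits on the horizontal axis and of 17 regulatory subunits on the vertical axis. The points rise together from hippo19 at 11.32 to hippo1 at 11.50 on the core axis, and hippo15 and hippo16 lie below the rest for their core level.

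The mean standardised core profile and regulatory profile had a Pearson correlation of 0.736 (rho 0.726), with a jackknife standard error of 0.0825. It was 0.673 without hippo1 and hippo14, the 2 libraries farthest from the median, and 0.833 without hippo15 and hippo16. The regulatory profile followed the beta ring (0.800) more closely in value than the alpha ring (0.604), and the lid followed the core (0.756) more than the base did (0.635); these differences were not tested. The core-minus-regulatory difference of mean log2 values ran from -0.44 in hippo34 through -0.39 to -0.29 in hippo15, a change of 1.11-fold in the balance of barrel to cap. Libraries formed a continuum along it, and the widest gap between neighbours was 18.3% of the range. In hippo15, 6 of 7 alpha genes and 5 of 6 beta genes stood above their medians, but 1 of 9 base genes did. In hippo34, 0 of 7 alpha genes stood above their medians, and 4 of 9 base and 5 of 8 lid genes did. The correlation with approximate depth was 0.0667 for the core profile, 0.0833 for the regulatory profile and 0.0382 for their balance. Without hippo30, the library of least depth, the values changed sign to -0.226, -0.0335 and -0.283.

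Other genes of the ubiquitin and proteasome pathway followed the subunits to very different degrees. Their correlation with the mean profile of all 30 subunits is set here beside that of all tested genes. Those had a median of -0.0055, with 49.3% above 0 and 5.81% above 0.5. Of 5 other 19S genes, all 5 were positive, with a median of 0.346. Sem1, a small lid protein, had 0.762, and Adrm1, a ubiquitin receptor of the cap, had 0.458. The assembly helpers Psmd9, Psmd5 and Psmd10 had 0.346, 0.302 and 0.106. Of 5 listed chaperones of core assembly, the 4 with a row had a median of 0.423, led by Psmg4 (0.583) and Psmg3 (0.498), and no row matched Pomp.

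The 6 deubiquitinases and shuttle factors of the proteasome had a median of 0.497, and all were positive. Ubqln1, a shuttle that carries tagged proteins to the cap, had 0.573, Rad23b had 0.529, and the cap-bound deubiquitinase Usp14 had 0.484. The 3 genes of ubiquitin and its activation had a median of 0.470, with Ubb, a polyubiquitin gene, at 0.599, Rps27a at 0.470 and Uba1, the ubiquitin-activating enzyme, at -0.0315. Ubb followed the regulatory profile (0.760) more than the core (0.357). The unfolding factors Vcp and Nploc4 had 0.249 and -0.227, and no row matched Ufd1.

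Alternative proteasome parts had lower values, a difference that was not tested. The immunoproteasome subunits, which replace the catalytic subunits after interferon, had a median of 0.119, with Psmb8 at 0.119, Psmb9 at -0.0774 and Psmb10 at 0.206. Psmb8 ran from 102 through 169 to 243 normalised counts and had a correlation of 0.0652 with Psmb5, which it replaces. Psmb10 had 0.162 with Psmb7, which it replaces. Of the 5 activators and inhibitors, the 4 with a row had a median of 0.0656, and no row matched Psme3. They were the interferon-inducible activators Psme1 (0.0711) and Psme2 (0.06), the nuclear activator Psme4 (-0.046) and the inhibitor Psmf1 (0.269). The subunits of restricted tissues, Psma8 of the testis and Psmb11 of the thymus, had 0.122 and 0.428, at medians of 116 and 25.5 normalised counts. Psmb9 had a median of 105 normalised counts. Counting noise is larger at such low values, and its part in these correlations was not tested.

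**Figure D5:**
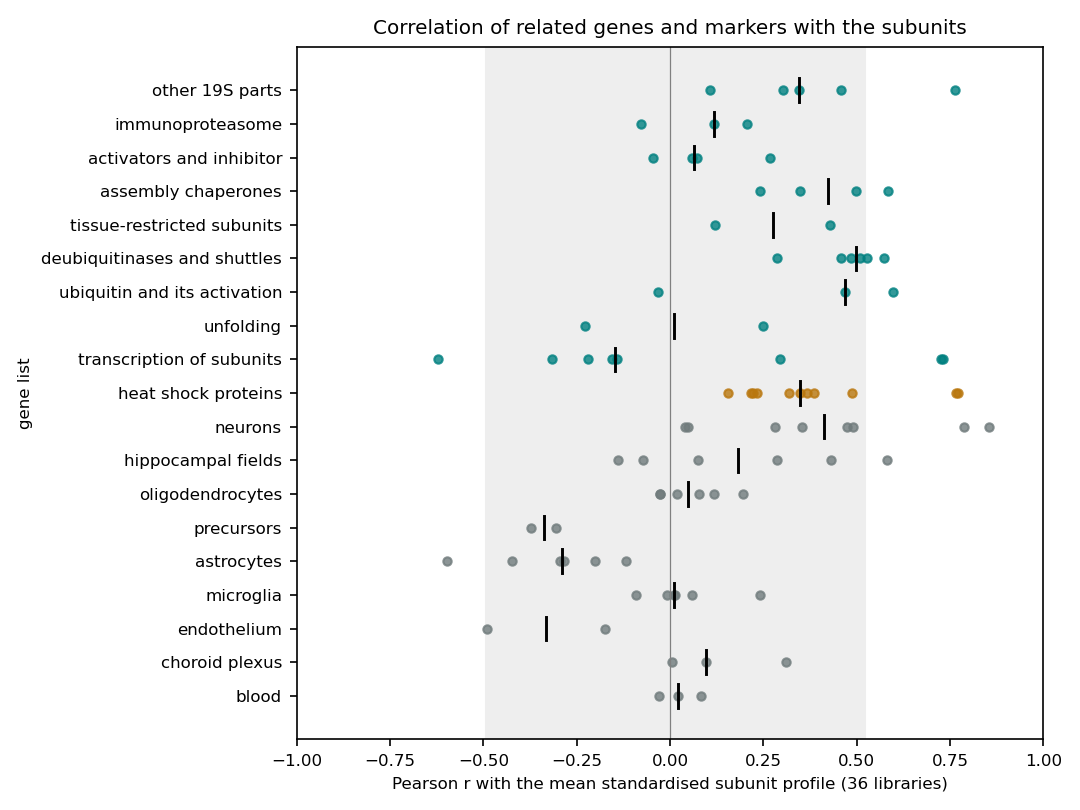
Each point is a gene placed by its Pearson correlation with the mean standardised subunit profile over 36 libraries, with 1 row per list, a black bar at the median of the list and a grey band for the 5th to 95th percentile of all tested genes, from -0.492 to 0.522. Deubiquitinases and shuttles have the highest median of the pathway lists, 0.497, and astrocyte, precursor and endothelial genes lie at or below -0.119.

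Factors known to control the subunit genes or the proteasome itself gave no common direction. The list of 8 had a median of -0.148, and 3 of the 8 were positive. Nfe2l1, which makes NRF1, had -0.142, and Ddi2, the protease that activates NRF1, had -0.621. By contrast, Akirin2, which brings proteasomes into the nucleus, had 0.727, and Zfand5, which stimulates the proteasome, had 0.731. Heat shock genes, the other arm of protein quality control, had a median of 0.349 over 11 genes, led by Hsp90aa1 at 0.773 and the mitochondrial chaperonin partner Hspe1 at 0.767.

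Subunit genes were not alone in moving this way. The 54 nuclear genes of the respiratory chain had a median correlation of 0.625 with the subunit profile, and 41 of the 54 exceeded 0.5. Their profile had a correlation of 0.823 with the core (0.804 without hippo1 and hippo14) and of 0.727 with the regulatory profile. With the respiratory chain profile regressed out, the median correlation was 0.270 within the core, 0.143 within the regulatory particle and 0.0396 between them, and the correlation of the core profile with the regulatory profile was 0.334. The 57 cytosolic ribosomal protein genes were tight among themselves, with a median pair correlation of 0.745, but their profile had 0.515 with the core and 0.293 with the regulatory profile. The difference between these families in their tie to the subunits was not tested.

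Most neuronal markers went with the subunits, and markers of astrocytes, oligodendrocyte precursors and endothelium went against them. All 8 neuronal markers had a positive Pearson correlation, against 49.3% of all tested genes. Their median was 0.414, and the highest values were those of Nefl, a neurofilament gene (0.854), and Stmn2 (0.788). The lowest were Syt1 (0.0486, rho -0.06) and Gad2 (0.0394, rho -0.0816), which were negative by rank. The 6 markers of hippocampal fields had a median of 0.181, and 4 were positive, with values from -0.139 for Prox1 to 0.5815 for Neurod6. The neuronal profile had 0.685 with the regulatory profile and 0.465 with the core. All 6 astrocyte markers were negative, with a median of -0.289, and the astrocyte profile had -0.577 with the regulatory profile and -0.237 with the core. Whether these values differ between the particles was not tested. The 2 precursor markers, Pdgfra and Cspg4, were negative as well, with a median of -0.339. So were the 2 endothelial markers with a row, Cldn5 and Flt1, with a median of -0.332. Oligodendrocyte and microglial markers had medians of 0.0481 and 0.0114, and choroid plexus markers 0.0977. With the neuronal and astrocyte profiles regressed out, the median correlation was 0.540 within the core and 0.181 within the regulatory particle, and core and regulatory profiles had 0.688. In whole tissue, fewer cells of a type and less RNA per cell cannot be told apart.

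The genes outside the list that followed the subunit profile most closely, over all 36 libraries, were Ppial4d (0.893), LOC100362453 (0.879), Calm2 (0.866), Polr2g (0.865) and Nefl (0.854). Calm2 makes calmodulin, and Polr2g makes a subunit of RNA polymerase II. Among the most opposed were Plxnb1 (-0.852), a semaphorin receptor, Mllt6 (-0.843), Shank1 (-0.825), a postsynaptic scaffold, and Pkd1 (-0.815). The balance of core over regulatory subunits went most closely with Gpm6a (0.857), a neuronal membrane glycoprotein, and Ssr3 (0.846), and was most opposed to Wdr81 (-0.773).

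The members are spread over the genome, with 6 of the 31 on chromosome 10, 5 on chromosome 1 and 4 on chromosome 3 in RefSeq GRCr8. The closest neighbours are Psmb4 and Psmd4 on chromosome 2, with 4 protein-coding genes between them, and their correlation was 0.438. RefSeq lists 35 pseudogenes of 15 of the members, 7 of them of Psmb3 and 5 of Psma6. Reads that fit both a gene and such a copy could be divided between them by the counting, so the values of the 14 of these genes that had a row are less certain.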

How the data were processed

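Total RNA of frozen rat hippocampus was sequenced in 36 libraries. The authors deposited 1 table of 36 columns of normalised counts, a signal per gene and library that is not whole reads. Per the submitters' processing notes, kallisto 0.43 and DESeq2 were used, with no role given for either and the reference transcriptome not given in the sources used here. Column names could not be tied to samples, so all columns formed 1 set and 0 other per-sample columns were used. Values were taken as log2(value + 1) in Python 3.11.15 with numpy 2.4.6, pandas 2.3.3 and scipy 1.17.1, over genes with a median of at least 10. Spread was the interquartile range. Co-variation was Pearson's r, with Spearman's rho beside it. Profiles were means of standardised log2 values. Standard errors are jackknife errors over libraries. They treat the libraries as independent and were added after the data were seen, as were the genes of like level, the counting noise and the promoter motifs. The motifs were first tried on windows that also held the 50 bases after the start. Scripts were tested on simulated data. Depth was estimated from the spacing of low values and ranged from 17900000 to 40200000 reads.

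Members and gene lists were chosen with earlier results of these data known. All members are accounted for, and those named in the text are the 3 widest and 3 narrowest, the 3 with the highest and the 3 with the lowest median correlation to the rest, the 3 highest and 3 lowest pairs, the catalytic subunits, and the 5 genes nearest to the profile. The most opposed genes, those named for the balance, the pairs of partners or scaffolds and further members were chosen after their values were seen. Levels per coding length or per transcript length were planned and not run, because no lengths were used here, so subunits are not ranked by level. Some genes outside the subunits are not reported here, and the ubiquitin list was computed without them. The alternatives tried were other measures of spread and correlation, other pseudocounts, scalings and filters, principal components or marker profiles regressed out, and libraries left out.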

Additional observations from a re-analysis of the deposited data

How the results depend on the processing

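No paired analysis was possible because the columns carry no replicate or group label and no groups were compared. Of 132 values under other settings, 117 moved by less than the jackknife standard error or, for the counts of genes, by less than 1.5 times, and 15 moved by more. The cause was not tested for any of the 15. The values with 1 library left out could hardly move by more than that error, because the error was computed from them. Rescaling by the median of ratios returned the same values, and other pseudocounts hardly changed them. The count of 117 is therefore no measure of how stable the results are. Among lists with a median near 0, 4 of the values changed sign. The immunoproteasome had -0.0013 with columns scaled to the same total and -0.002 with 1 component out, activators had -0.0484 with 1 component out, and unfolding had -0.028 with 1 library left out. With 3 principal components of all genes taken out, the median correlation was 0.182 within the regulatory particle and 0.233 between particles, and the profiles had 0.635. With 1 component out, deubiquitinases and shuttles had 0.644 and unfolding factors 0.122. With columns scaled to the same total, the ubiquitin list had 0.311. Without hippo1 and hippo14, core with regulatory pairs had 0.278, and without hippo15 and hippo16 the profiles had 0.833. With medians over subunits, the range of the balance was 0.23 on the log2 scale, against 0.16. With neuronal and astrocyte profiles out, regulatory pairs had 0.181 and core with regulatory pairs 0.282. With the respiratory chain profile out, pairs had 0.270 in the core, 0.143 in the regulatory particle and 0.0396 between them, and the profiles had 0.334.

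Leaving out each library in turn gave 1.20 to 1.44 for the ratio of spreads, 0.541 to 0.610 for core pairs, 0.268 to 0.322 for regulatory pairs, 0.326 to 0.387 between them, 0.706 to 0.790 for the profiles and 0.13 to 0.16 for the range of the balance. For the lists it gave 0.308 to 0.402 for other 19S parts, 0.0525 to 0.172 for the immunoproteasome, 0.0137 to 0.179 for activators, 0.400 to 0.453 for assembly chaperones, 0.244 to 0.344 for tissue-restricted subunits, 0.464 to 0.531 for deubiquitinases and shuttles, 0.437 to 0.577 for ubiquitin, -0.028 to 0.0351 for unfolding and -0.179 to -0.0937 for the list on transcription and control of the subunits. With minima of 1 or none, 18064 and 20603 genes were counted, and the median percentile of the subunits' spread was 10.9 and 15.6, against 12.5. The narrowest subunit, Psmd13, varied at 1.10 times counting noise.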
